A study of Osmanthus fragrans with 6 samples.

Results

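Petals of Osmanthus fragrans var. semperflorens were compared between the initial stage and full bloom of the first flowering round. The comparison was limited to 1952 abundant transcripts of the 96596 in the assembly (2.02%). A transcript was taken as abundant when its level, in counts scaled to a common library total (CPM), averaged 100 or more over the 6 libraries of the series. The choice thus used the levels of the compared libraries as well as the other 4. The 2 transcripts nearest to the limit were c160539_g2_i1, inside it at a mean of 100.04 CPM, and c62688_g1_i1, outside it at 99.98 CPM. The ratio of full bloom to the initial stage was 0.587 for the first and 1.03 for the second.

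The variety is an evergreen sweet osmanthus that flowers in repeated rounds. Its petals owe their yellow colour to carotenoids, pigments that are built in plastids and can be cleaved by dioxygenases into ionones, which are part of the flower's scent. Opening of a petal is mainly an enlargement of existing cells, with changes in wall, sugar and hormone genes known from many flowers. The table pairs its transcript IDs with no gene names, so no transcript is assigned here to these pathways, and petal markers could not be checked.

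Each stage is 1 library, made from 5 pooled replicates of untreated petals taken from outdoor trees in September, on dates that followed the stage. Stage and collection date therefore cannot be told apart. The libraries are called initial 1, full 1, late full 1 and abscission 1 for the 4 stages of round 1, and initial 2 and full 2 for round 2. With 1 library on each side there is no spread between replicates, no test and no p-value. Every interval below is an exact 95% interval for counting error alone. In a pooled tissue, fewer cells of a type and less RNA per cell cannot be told apart.

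Initial 1 is the library that limits the comparison. It held 107466 counts, while full 1 held 19797486, which is 184 times as many, and the other 4 held 17826687 to 39119106. One count in initial 1 stood for 9.31 CPM. The abundant transcripts took 56.6% of the counts in initial 1 (95% Clopper-Pearson interval 56.3 to 56.9%), 60.0% in full 1 and 58.8 to 67.3% in the other libraries. The 10 most abundant transcripts of each library held 6.79% of the counts of initial 1 and 5.87% of those of full 1, against 17.3% in abscission 1.

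Of the 1952 transcripts, 60 were higher and 34 were lower in full 1, when the whole interval of the ratio had to lie past 2-fold. These calls are 3.07% and 1.74% of the transcripts. Among all 17958 transcripts with at least 50 counts in the pair, most of them at smaller counts, the same rule called 0.484% higher and 1.36% lower. Because full 1 was so much deeper, a transcript with few counts there could not be called higher, even with no count in initial 1. It could still be called lower, so these shares are not like for like with those of the abundant transcripts. For 713 abundant transcripts (36.5%) the whole interval lay between 0.5 and 2. The remaining 1145 (58.7%) had an interval that crossed at least 1 of these limits. By this rule a difference of 2-fold was shown for none of them, and it was undecided in at least 1 direction. Of these 1145, 12 had 100 counts or more in initial 1. With the limit at 1-fold, 403 transcripts had an interval wholly above and 249 wholly below, and at 4-fold these were 14 and 6.

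The log2 ratios of full 1 to initial 1 lay around a median of 0.15, with quartiles of -0.30 and 0.61 and an overall range from -4.03 to 4.75. The ratio was above 1 for 1137 transcripts and below 1 for 815. The direction of the typical transcript depends on the scaling. TMM, which sets libraries to a common level through the transcripts they share, raised every log2 ratio by 0.52, to a median of 0.67. Taken from the abundant transcripts alone, TMM shifted the log2 ratios by -0.13 instead, and DESeq2 size factors over the same transcripts shifted them by -0.15. The shift of 0.52 came from 30524 kept transcripts with at least 1 CPM in any library. In initial 1, 1 count already stood for 9.31 CPM, and the part of such low counts in the shift was not tested. With TMM over all kept transcripts, 161 abundant transcripts (8.25%) were called higher and 15 (0.768%) lower. That is 91.5% of the calls on the higher side, against 63.8% with column totals. All 60 higher calls and 15 of the 34 lower calls held under both scalings. Under all 6 scalings tried, 46 higher and 15 lower calls held.

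**Figure D1:**
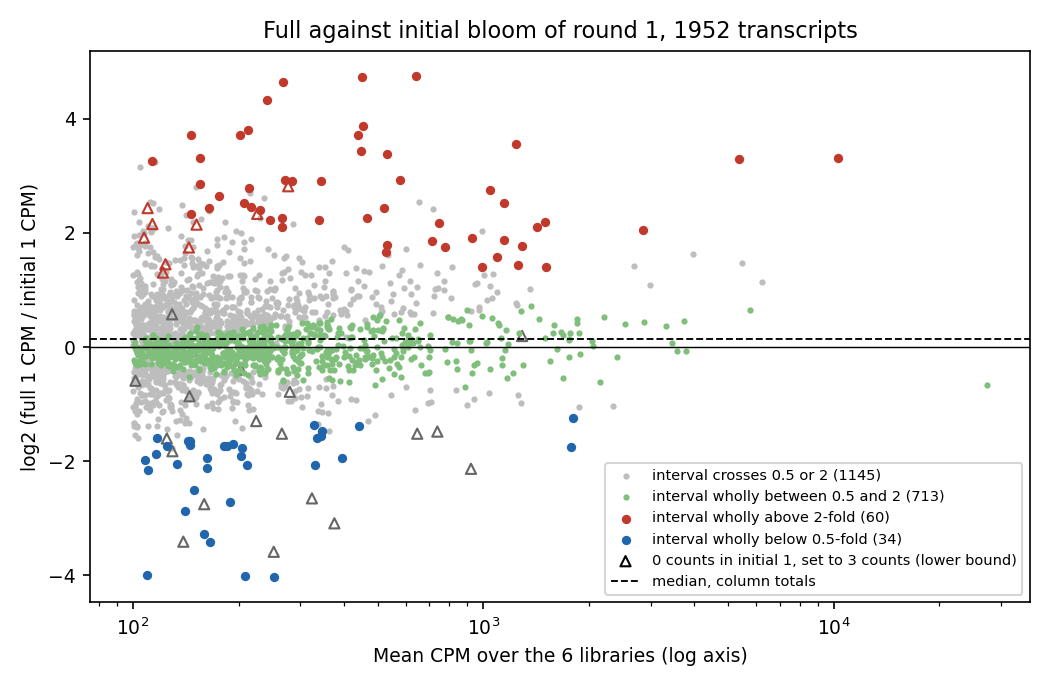
Each point is 1 of the 1952 transcripts, with its mean CPM over the 6 libraries on a log axis and the log2 ratio of full 1 to initial 1 CPM. Red and blue points are the 60 higher and 34 lower calls, green points have an interval wholly between 0.5 and 2, grey points cross one of these limits, and triangles mark the 28 transcripts with 0 counts in initial 1, set to 3 counts; the dashed line is the median of 0.15.

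Precision was set by the counts in initial 1. An abundant transcript had a median of 19 counts there (quartiles 12 and 31, range 0 to 3213) and 3683 in full 1. The 314 transcripts with 1 to 9 counts in initial 1 had intervals whose upper limit was a median of 5.15 times the lower, and 0 of them could be placed within 2-fold. At 10 to 29 counts this width was 2.68-fold, and 375 of 1087 transcripts lay within 2-fold. At 30 to 99 counts it was 1.88-fold, with 286 of 454 within 2-fold. At 100 counts or more it was 1.37-fold, and 52 of 69 transcripts lay within 2-fold.

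Higher and lower calls came from different parts of this range. In initial 1, 9 of the 60 higher transcripts had no count and 32 had 1 to 9, so 19 rested on 10 counts or more. The 34 lower transcripts had 14 to 441 counts in initial 1, with a median of 45.5. Among the 69 transcripts with 100 counts or more in initial 1, 0 were called higher and 5 lower. The count in initial 1 is itself part of the ratio, so these numbers describe the calls and carry no direction of their own.

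**Figure D2:**
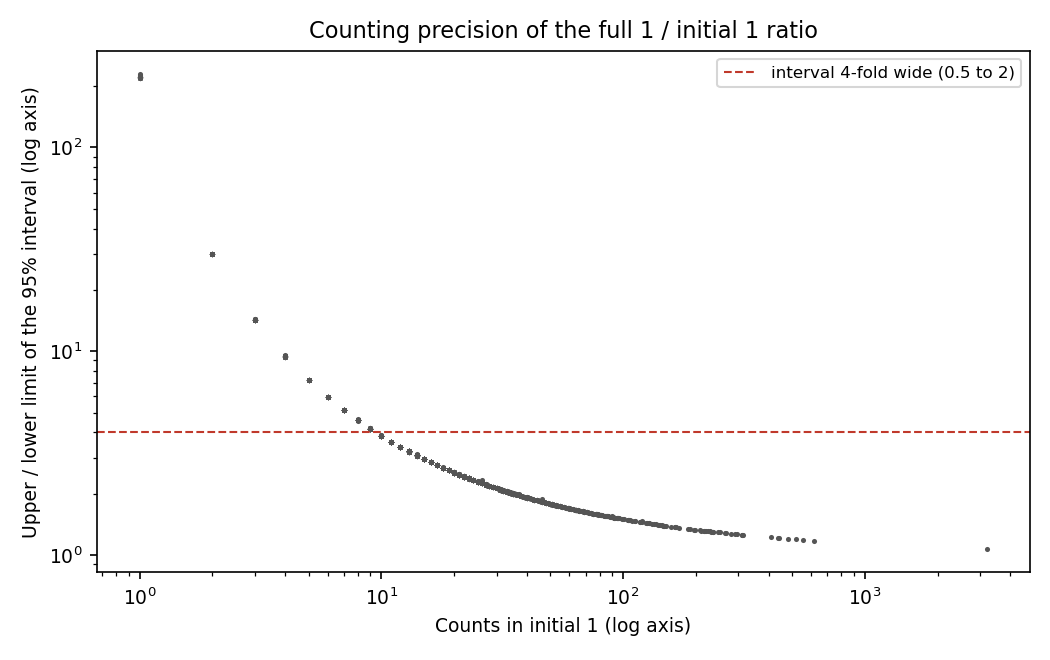
Each point is 1 transcript with at least 1 count in initial 1; the horizontal log axis is that count and the vertical log axis is the upper limit of the 95% interval of its ratio divided by the lower limit. The width drops from a median of 5.15 at 1 to 9 counts to 1.37 at 100 counts or more, and the dashed line at 4 is the widest interval that lies between 0.5 and 2.

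By abundance, the 222 transcripts at or above a mean of 500 CPM held 24 higher calls (10.8%) and 2 lower calls (0.901%). In the 594 transcripts from 200 to 500 CPM there were 22 higher (3.70%) and 12 lower (2.02%). In the 1136 transcripts from 100 to 200 CPM there were 14 higher (1.23%) and 20 lower (1.76%). Counts in initial 1 moved with the band, with a median of 68 in the most abundant and 15 in the least. The mean that set the bands also included both compared libraries, so the bands are not independent of the ratio. The part of either in these shares was not tested. When the abundant transcripts were chosen on the 4 libraries outside the pair, 1868 qualified, of which 1756 were the same. Of these 1868, 63 were higher and 22 lower in full 1.

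The higher transcript whose interval stood farthest from 1 was c151536_g1_i1. It had 4 counts in initial 1, or 37.2 CPM (95% interval 10.1 to 95.3), and 19457 counts in full 1, or 983 CPM. It was 26.4-fold higher in full 1 (95% interval 10.3 to 96.9). It stood at 854 CPM in late full 1 and 141 CPM in abscission 1. In round 2 it went from 118 CPM in initial 2 to 575 CPM in full 2, which is 4.86-fold higher (95% interval 4.70 to 5.03). The transcript was thus high in both full-bloom libraries and in late full 1, and low in both initial libraries and at abscission.

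The second was c153818_g1_i1, with 3 counts in initial 1, or 27.9 CPM (95% interval 5.76 to 81.6), and 11110 counts in full 1, or 561 CPM. Its ratio was 20.1-fold (95% interval 6.88 to 97.5). Its levels were 434 CPM in late full 1, 52.8 CPM in abscission 1, 51.5 CPM in initial 2 and 319 CPM in full 2. Its libraries had the same order as for c151536_g1_i1, although its counting intervals in initial 1, abscission 1 and initial 2 overlapped. In round 2 it was 6.20-fold higher at full bloom (95% interval 5.89 to 6.52).

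The lower transcripts whose intervals stood farthest from 1 rested on more counts. Transcript c115111_g1_i1 had 120 counts in initial 1, or 1117 CPM (95% interval 926 to 1335), and 1368 counts in full 1, or 69.1 CPM. It was 16.2-fold lower in full 1 (95% interval 13.3 to 19.5), or 11.3-fold lower with TMM. It stood at 0.733 CPM in late full 1 and 4.71 CPM in abscission 1. In round 2 it was 21.7-fold lower at full bloom (95% interval 16.6 to 28.9), between 62.1 CPM in initial 2 and 2.86 CPM in full 2. Its level in initial 2 was thus near that of full 1, far below that of initial 1. In every library but initial 1 it stood below the limit set for the mean of an abundant transcript. It was thus among the compared transcripts only through its high level in initial 1. That level also makes its ratio in this round low, so its place among the lower calls is partly built in.

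Transcript c161015_g2_i3 had 46 counts in initial 1, or 428 CPM (95% interval 313 to 571), and 517 counts in full 1, or 26.1 CPM. It was 16.4-fold lower in full 1 (95% interval 11.9 to 22.2), or 11.4-fold lower with TMM. It stood at 14.5 CPM in late full 1 and 5.44 CPM in abscission 1. In round 2 it was 21.1-fold lower at full bloom (95% interval 19.7 to 22.5), from 991 CPM in initial 2 to 47.0 CPM in full 2. Both initial libraries were above all 4 others for this transcript, and initial 2 was its highest.

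The 2 most abundant transcripts of the pair were called neither way. Transcript c143985_g1_i1 took 2.99% of all counts of initial 1 (95% Clopper-Pearson interval 2.89 to 3.09%) and 1.88% of those of full 1. Its share was 4.09% in late full 1, 3.05% in abscission 1, 2.82% in initial 2 and 1.59% in full 2. Its ratio in round 1 was 0.630 (95% interval 0.608 to 0.652), but 0.903 with TMM, so scaling moved it by more than its counting error. In round 2 the ratio was 0.565 (95% interval 0.562 to 0.567). Both full-bloom libraries were the lowest of the 6 for this transcript.

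Transcript c144174_g2_i1 stood at 5155 CPM in initial 1 and 8105 CPM in full 1, on 554 and 160465 counts. The ratio was 1.57 (95% interval 1.45 to 1.71). With TMM it was 2.25, and the interval then lay above 2-fold, from 2.07 to 2.46. It stood at 8431 CPM in late full 1 and 1422 CPM in abscission 1. In round 2 the ratio was 0.970, between 5789 CPM in initial 2 and 5614 CPM in full 2. With TMM the ratio of round 2 was 1.24 (95% interval 1.23 to 1.25), so its direction depended on the scaling.

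As a group, the 60 higher transcripts had folds of 2.47 to 26.9 with a median of 5.41. For these folds the 9 with 0 counts in initial 1 were set to 3 counts there. The 60 took 0.662% of the counts of initial 1 and 3.18% of those of full 1. Their share was 7.67% in late full 1, 8.44% in abscission 1, 1.98% in initial 2 and 6.34% in full 2. The median level was 55.8 CPM in initial 1 and 351 CPM in full 1. It was 443 CPM in late full 1, 286 CPM at abscission, 179 CPM in initial 2 and 589 CPM in full 2. Within round 1, the highest level was in full 1 for 12 of them, in late full 1 for 26 and in abscission 1 for 22.

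The later course divided these 60 transcripts. At abscission 18 were at least 2-fold above their level in full 1, 18 were at least 2-fold below it, and 24 lay between. The 18 that were above had median levels of 268 CPM in full 1, 646 CPM in late full 1 and 899 CPM at abscission. The 18 that were below had median levels of 525 CPM in full 1, 443 CPM in late full 1 and 137 CPM at abscission. The highest level of any of the 60 was 28743 CPM, in abscission 1. These later values share full 1 with the choice of the group and with the split, and are given as levels only.

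The 34 lower transcripts were 2.37- to 16.4-fold lower in full 1, with a median of 3.72-fold. They held 2.25% of the counts of initial 1 and 0.647% of those of full 1. The median level was 423 CPM in initial 1 and 106 CPM in full 1. It was 52.5 CPM in late full 1, 77.0 CPM at abscission, 241 CPM in initial 2 and 73.4 CPM in full 2. At abscission 14 of the 34 were at least 2-fold below full 1, 10 were at least 2-fold above it and 10 lay between. Of the 6 libraries, initial 1 was the highest for 26 of them, initial 2 for 6 and abscission 1 for 2. Initial 1 entered both the choice of this group and the mean of 100 CPM, so its rank is partly built in. The counts at abscission share full 1 with the choice of the group, and are given as levels only.

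The 713 transcripts placed within 2-fold took 33.3% of the counts of initial 1 and 32.6% of those of full 1. Their median level was 261 CPM in initial 1 and 253 in full 1, then 202 CPM in late full 1 and 144 CPM at abscission. In round 2 it was 241 CPM in initial 2 and 214 in full 2.

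**Figure D3:**
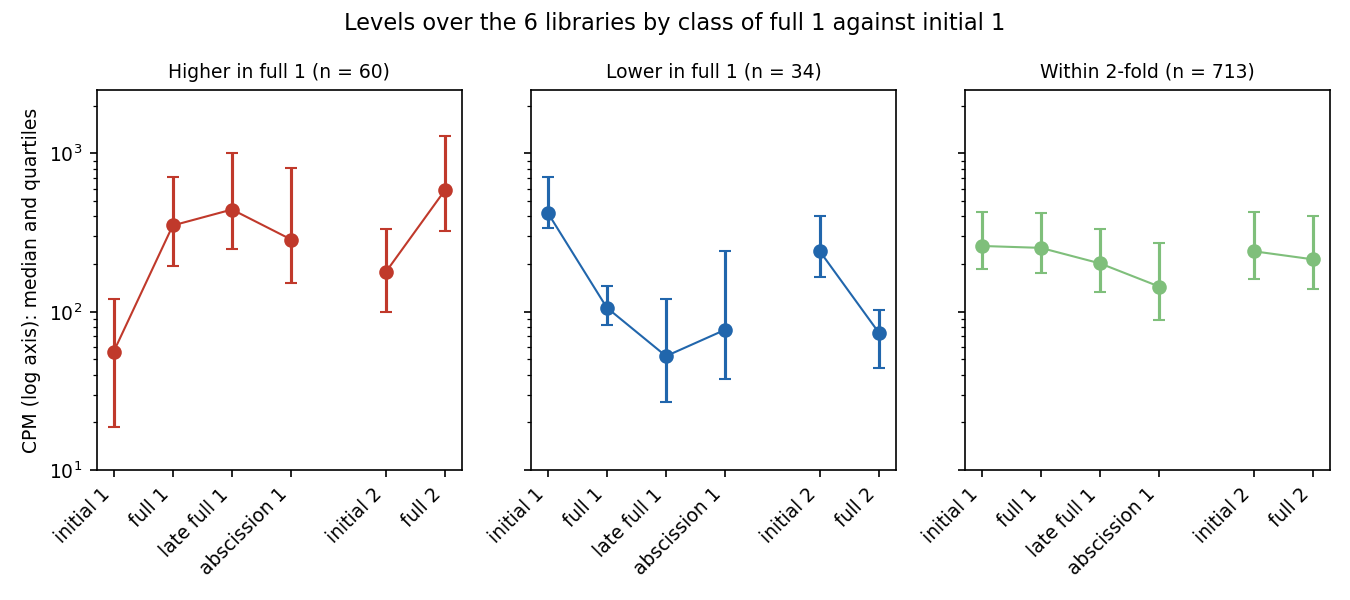
Points are median CPM and bars the quartiles, on a log axis, over the 60 higher, 34 lower and 713 within-2-fold transcripts in the 6 libraries; lines join the stages of a round. The difference between initial 1 and full 1 is fixed by the choice of the groups. Round 2 was not compared by the calls, but its levels entered the choice of the abundant transcripts. Its medians in initial 2 and full 2 were 179 and 589 CPM for the higher group and 241 and 73.4 CPM for the lower group.

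Full bloom against the initial stage was also sampled in round 2, with libraries that the calls did not compare. Initial 2 was far deeper than initial 1, while full 2 held slightly fewer counts than full 1. Initial 2 and full 2 did enter the mean of 100 CPM by which the abundant transcripts were chosen. A transcript low in the other libraries could reach that mean through initial 2 or full 2. The counts below are thus not independent of that choice. In round 2, 308 of the 1952 transcripts (15.8%) were called higher and 188 (9.63%) lower by the same rule. Of the 60 higher transcripts of round 1, 42 were called higher in round 2, which is 70.0% of the round 1 calls and 13.6% of those of round 2. Of the 34 lower transcripts, 26 were called lower in round 2, or 76.5% and 13.8% of the respective lists. The ratio in round 2 was above 1 for 57 of the 60 higher transcripts, against 50.6% of all abundant transcripts. It was below 1 for 34 of the 34 lower transcripts, against 49.4% of all.

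With TMM, round 2 had 22.8% of the abundant transcripts called higher and 4.66% lower, among them 49 of the 60 and 22 of the 34. The ratio with TMM was above 1 for 57 of the 60 higher transcripts, against 66.1% of all, and below 1 for 33 of the 34 lower ones, against 33.9% of all. The median ratio of round 2 was 3.84-fold higher in the group of 60 and 3.26-fold lower in the group of 34, with column totals. Of the 713 transcripts within 2-fold in round 1, 621 were called neither way in round 2, 35 were called higher and 57 lower. Of all 1952 abundant transcripts, 1456 were called neither way in round 2. The opposite call in round 2 was made for 2 of the 60 higher transcripts and for 0 of the 34 lower ones. No difference between the rounds was tested.

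**Figure D4:**
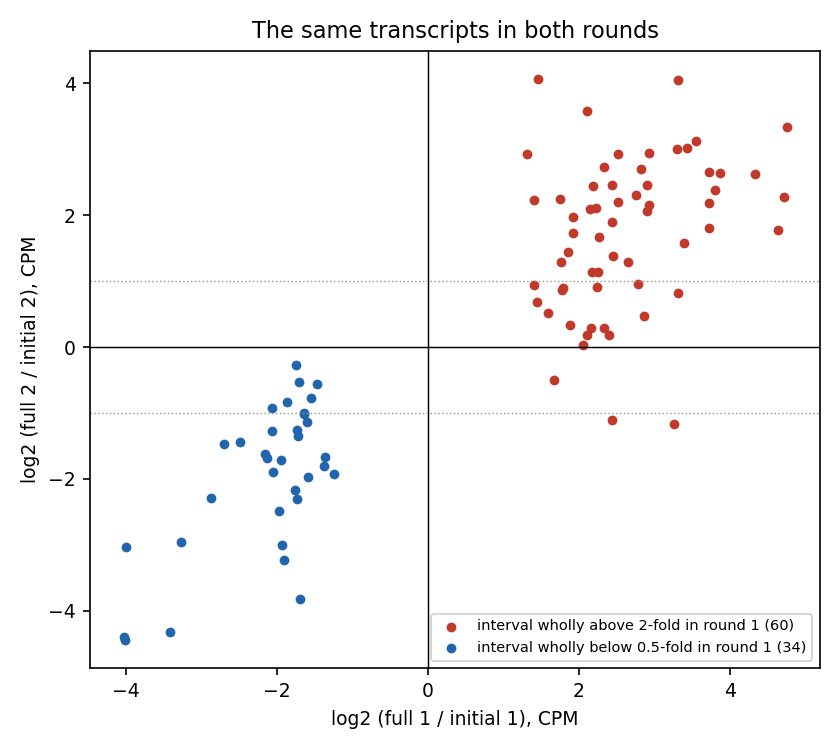
Each point is 1 of the 94 called transcripts, with the log2 ratio of full to initial bloom in round 1 on the horizontal axis and in round 2 on the vertical axis, both from CPM by column totals; 9 red points are lower bounds on the horizontal axis. Of the 60 red points 57 lie above 0 on the vertical axis and all 34 blue points lie below it, and the dotted lines mark 2-fold.

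Of the abundant transcripts, 28 had 0 counts in initial 1, for which a floor of 3 counts, or 27.9 CPM, was used. The upper limit of the exact two-sided 95% interval of a count of 0 is 3.69 counts, or 34.3 CPM. Full 1 was above the floor of 27.9 CPM for 11 of the 28, and 9 had an interval wholly above 2-fold. Against the floor, the highest of them was 7.05-fold higher in full 1, while the lower limit of its exact interval was 5.73-fold. For the other 17 no difference was detectable at the depth of initial 1, since their level in full 1 was under the floor. The median level of the 28 was 17.4 CPM in full 1, 202 CPM in late full 1 and 588 CPM at abscission. In round 2 it was 18.8 CPM in initial 2 and 208 CPM in full 2. Their highest library was abscission 1 for 20, full 2 for 5 and late full 1 for 3. With at most 197 CPM in full 1 and no count in initial 1, they could reach the mean of 100 CPM only through the other 4 libraries, so their high levels there follow from the choice of the abundant transcripts.

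Assembled transcripts can share sequence, and how shared reads were divided is not given in the sources used here. Among the 1952 transcripts, 288 shared the first part of their ID with another, in 135 groups of at most 4. A call was made in 14 of these groups. In 1 of the 14 there were 2 calls in the same direction, and in 0 were there calls in both directions. Of all 1952 transcripts 4.82% were called higher or lower, and the counts by group were not tested against that share. The median gap between the highest and lowest log2 ratio in a group was 0.79.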

How the data were processed

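Petal RNA of 6 libraries was measured by poly-A RNA sequencing on an Illumina instrument, per the labels' protocols. Every stage is a pool of 5 replicates, per the series' design text. The series title states a de novo transcriptome, and the submitters' processing notes name CASAVA 1.7. How transcripts were assembled, aligned to and counted is not given in the sources used here.

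The authors deposited unscaled estimated counts for 96596 transcripts. Each column had 36 to 855 values with decimals and was otherwise whole, from which the unit was taken, and all values were rounded first. Every column matched the title of 1 sample, and 0 columns were left over. The file pairs its IDs with no gene names.

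Members average at least 100 CPM, counts scaled to a common column total, over the 6 libraries. Ratios are CPM ratios with no added count. Each has an exact 95% Clopper-Pearson interval on the pair of counts, and a count of 0 in a printed fold or median was set to a floor of 3 counts. A transcript was called higher or lower when the whole interval lay past 2-fold. Shares of a library have Clopper-Pearson intervals and single CPM values exact Poisson intervals. Reads are not independent molecules, so all of these limits hold for counting error alone. With 1 library per stage no test was made. The interval code was tested on simulated data.

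The text names the 2 members called higher and the 2 called lower whose interval stood farthest from 1, and the 2 of highest mean CPM over the pair that were called neither way. Other scalings were TMM of edgeR 4.0.16, over 30524 transcripts with at least 1 CPM in any library, and DESeq2 1.42.0 size factors, in R 4.3.3. Python 3.11.15, NumPy 2.4.6, pandas 2.3.3, SciPy 1.17.1 and matplotlib 3.10.9 did the rest. The members, the call rule and the alternatives were chosen with earlier results of these data known. TMM on the members alone was added after the values were seen.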

Additional observations from a re-analysis of the deposited data

Results flagged for a closer look

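Transcripts c162245_g1_i1 and c161614_g3_i1 were called higher at full bloom in round 1 and lower in round 2, with column totals. They are named because they were the 2 exceptions, after their values were seen, and the difference between the rounds was not tested. Transcript c162245_g1_i1 was 9.54-fold higher in full 1 (95% interval 2.64 to 78.8), on 2 counts in initial 1 and 3515 in full 1. Its levels were 18.6 CPM in initial 1, 178 in full 1, 223 in late full 1, 36.6 in abscission 1, 156 in initial 2 and 69.1 in full 2. Transcript c161614_g3_i1 was 5.42-fold higher in full 1 (95% interval 2.11 to 19.9), on 4 counts in initial 1 and 3993 in full 1. Its levels were 37.2 CPM in initial 1, 202 in full 1, 495 in late full 1, 49.9 in abscission 1, 141 in initial 2 and 65.2 in full 2. In round 2 the ratios were 0.444 and 0.463, or 0.568 and 0.592 with TMM, where neither interval lay wholly below 0.5. The call of c161614_g3_i1 in round 1 was lost with DESeq2 size factors (4.87-fold) and with TMM on the abundant transcripts alone (4.96-fold).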

How the results depend on the processing

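With 1 library per stage, no replicate could be left out. No paired analysis was possible because each group holds 1 library. With column totals, 60 transcripts were called higher and 34 lower, the median log2 ratio was 0.15, and 42 higher and 26 lower calls were shared by both rounds. TMM over the 6 libraries and TMM on the pair each gave 161 higher and 15 lower calls around a median of 0.67, and TMM over the 6 libraries gave 111 higher and 12 lower calls in both rounds. DESeq2 size factors turned the median to -0.0089, with 46 higher and 44 lower calls. TMM on the members alone gave a median of 0.019, with 49 higher and 43 lower. Removing the 10 most abundant transcripts from the totals gave 58 higher and 35 lower. A minimum mean of 50 CPM gave 78 higher and 68 lower calls around a median of 0.080, a minimum of 200 CPM gave 46 and 14 around 0.19, and a minimum of 500 CPM gave 24 higher and 2 lower around 0.31. Members chosen on the 4 libraries outside the pair gave 63 higher and 22 lower calls around 0.21, with 43 and 16 in both rounds. Requiring 10 counts in initial 1 left 19 higher and 34 lower calls and a median of 0.027, which follows from leaving out transcripts with a low count on that side. Intervals wholly past 1-fold gave 403 higher and 249 lower calls, past 4-fold 14 and 6, with 12 and 5 in both rounds, and a ratio past 4-fold without an interval gave 76 higher and 19 lower. A 99% interval gave 40 higher and 28 lower. Beyond the scaling itself the cause of these changes was not tested. Of the transcripts named by rule, c144174_g2_i1 alone changed its call under the 5 other scalings, to higher with both TMM scalings over all kept transcripts. For 1145 members a difference of 2-fold was undecided in at least 1 direction.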
